A study of Homo sapiens with 8 samples.

Results

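When 2 inhibitors of the same pair of proteins are combined, the joint change in a transcript can be larger or smaller than the changes with each alone would give. The comparison here was made gene by gene in LNCaP-FGC cells, a human prostate carcinoma line whose growth depends on androgen, in 4 groups treated for 24 h: DMSO as the vehicle control, I-CBP112, A-485, and I-CBP112 and A-485 together. I-CBP112 binds the bromodomain of the coactivators p300 and CBP, and A-485 blocks their acetyltransferase active site. The departure from additivity was the log2 change that I-CBP112 made on top of A-485, minus the log2 change that I-CBP112 made on its own. It needs all 4 groups and therefore used all 8 libraries of the series, 2 per group, and it was also computed from the 4 libraries of replicate 1 and from the 4 of replicate 2, which share no library. Of 19431 genes summed, 11874 reached a level that allowed a test. All cells were of 1 cancer cell line without other treatment named in the labels, the sources used here state no doses, and the labels do not say that the replicates came from separate cultures, so p-values measure the spread between these libraries, which may be technical.

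p300 and CBP are large coactivators that transcription factors recruit to enhancers, where they acetylate histones and other proteins. The bromodomain holds acetylated lysine and the acetyltransferase domain writes it, so the 2 compounds act on different domains of the same molecules. In prostate luminal cells androgen signalling uses these coactivators to switch on genes such as KLK3, and it also holds down a set of genes that includes the enzymes that inactivate androgen. On a log2 scale, additive means that the fold changes multiply. If 1 compound leaves a given fraction of a transcript and the other leaves another fraction, the level at the sum is the product of those fractions and the DMSO level. A departure of -1 is a level 2-fold lower than that, on the log2(scaled FPKM + 1) scale, which understates the departure of genes with low values. FPKM counts fragments by transcript length in kilobases and by library size in units of 1e+06 fragments (M for 1e+06).

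The libraries of replicate 1 held an estimated 15.0 to 24.8 M fragments assigned to the transcripts of the table and those of replicate 2 held 3.77 to 11.9 M, so that low values were less precise in replicate 2. Within replicate 2 the library with both compounds held the 11.9 M, against 4.05 M with DMSO, 3.77 M with I-CBP112 and 4.98 M with A-485. The part of this uneven depth in the departures was not tested. After scaling, the median departure over the genes tested was 0.03 (0.03 in replicate 1 and 0.02 in replicate 2). On the FPKM as deposited it was 0.18, with -0.03 in replicate 1 and 0.41 in replicate 2, and departures are given relative to the scaled libraries. The marker sum of luminal prostate cells was 4477 to 5322 scaled FPKM in the DMSO libraries and 3285 to 3484 in those with I-CBP112. It was 2106 to 2500 with A-485 and 2018 to 2671 with both. KLK3, a luminal marker in this sum, was at 2244 and 1995 with DMSO and 51.6 and 50.6 with both. The fall of this marker sum from DMSO to both compounds was therefore largely that of KLK3, a gene described below for its departure. Of 8 blood and immune markers 6 were listed at 0 in all libraries, and the sum of the 8 stayed between 0 and 0.453 scaled FPKM. The sum of 5 neuroendocrine markers, 4 of them under 1 in all libraries, was 1.48 to 1.58 with DMSO, 1.43 to 2.84 with I-CBP112, 1.96 to 2.79 with A-485 and 4.61 to 4.90 with both, nearly all of it SYP. The sum of 3 endothelial markers, nearly all VWF, was 2.45 to 3.34, 1.68 to 2.11, 4.68 to 7.80 and 1.05 to 1.28 in the same order, with CDH5 at 0 throughout. The sum of 4 basal markers was 0 to 15.5 and that of 7 stromal markers 15.1 to 28.5 over all libraries. The part of these markers in the departures was not tested. A fall in RNA per cell and a loss of cells of a kind cannot be told apart in bulk RNA.

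Most genes lay close to the sum of the single changes. The quartiles of the departure were -0.29 and 0.31, while the median standard error of a departure was 0.33. The sign was the same in both replicates for 7786 of 11874 genes (65.6%), with 3651 below the sum (30.7%) and 4135 above it (34.8%). Across genes, which are not independent replicates, the departures in the 2 replicates had a Pearson r of 0.35 and a Spearman rho of 0.41. A departure of at least 1 in both replicates was found below the sum for 187 genes (1.57%) and above it for 64 (0.539%), and 59 genes were past 1 with opposite signs.

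With 1 mean per group and no term for the replicate number, limma called no gene at an adjusted p of 0.05 in either direction (0% below and 0% above). At an unadjusted p under 0.05 in limma, 637 genes were below the sum (5.36%) and 423 above it (3.56%). That split moved with the scaling, to 1004 and 142 with each library scaled to its total only, where the median departure was -0.19, and to 11 and 3 on the FPKM as deposited. With the replicate number as a block, which is the comparison within each replicate, limma called 8 genes below the sum (0.0674%) and 0 above it (0%), while 875 (7.37%) and 973 (8.19%) had an unadjusted p under 0.05. The 8 genes were KLK3, BCHE, MAOA, ACKR3, UGT2B17, TFPI, DDC and UGT2B15. Of them 4 (KLK3, ACKR3, MAOA and DDC) were also among the 10 genes (0.0842%) that limma called below the sum after a correction for GC content and length within the blocked fit, and 4 (BCHE, UGT2B17, UGT2B15 and TFPI) were not. The number of calls in the blocked fit depended on single libraries: it was 0 without any 1 of the 6 inhibitor libraries, 15 below and 2 above without DMSO replicate 1, and 361 below and 165 above without DMSO replicate 2. None of the 8 genes passed in the fit without the block, and the values by library are given for each.

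**Figure D1:**
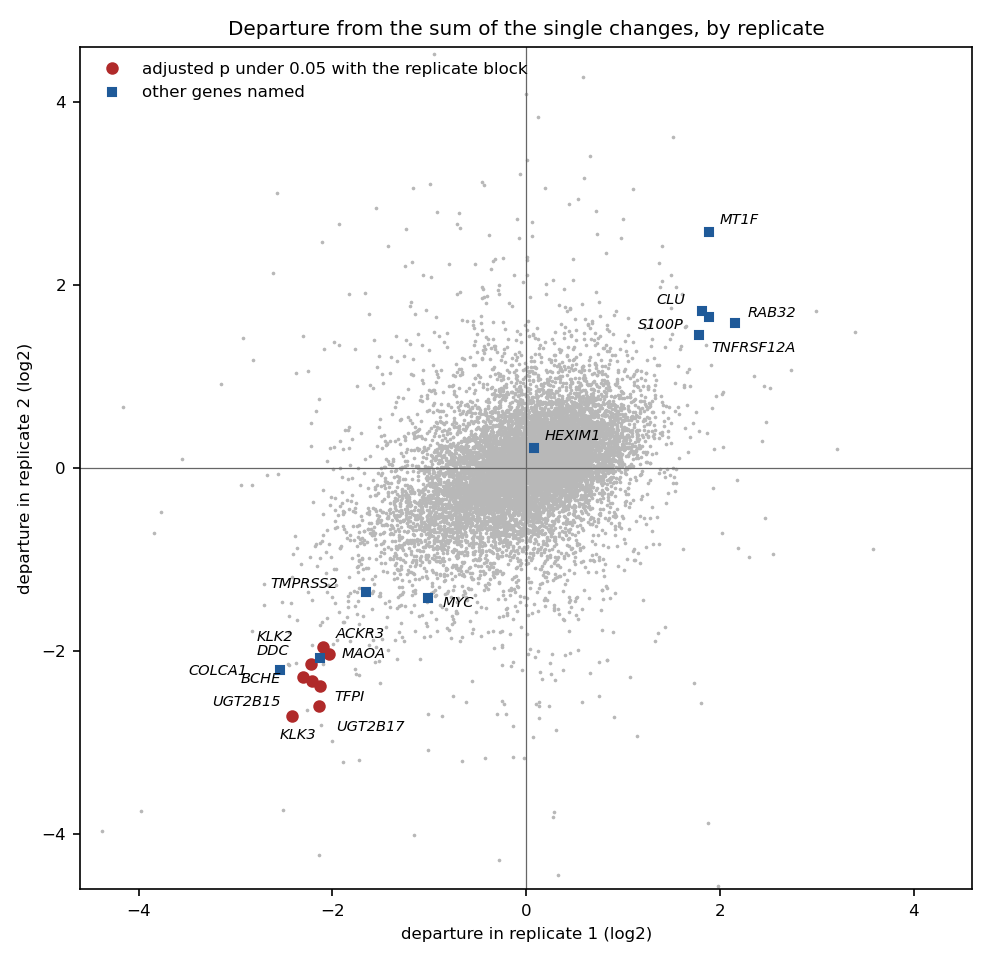
Departure from the sum of the single log2 changes in replicate 1 (horizontal axis, log2) and in replicate 2 (vertical axis, log2). Each grey point is 1 of 11874 genes tested (9 lie outside the axes), red circles are the 8 genes with an adjusted p under 0.05 in limma with the replicate block, and blue squares are other genes named in the text. The 8 red genes lie between -1.95 (ACKR3) and -2.71 (KLK3) in replicate 2, far from the bulk of genes around 0.

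Kallikreins and other prostate secreted or surface proteins stood furthest below the sum among the genes that androgen induces. KLK3, which encodes prostate-specific antigen, KLK2, its neighbouring kallikrein gene, KLK4, another kallikrein gene, and TMPRSS2, a serine protease of the luminal cell surface, were all lower with each compound than with DMSO and lower again with both. The promoters of KLK3 and KLK2 are shown with those of UGT2B15 and BCHE, 2 genes that stood as far below the sum although neither compound alone lowered them, so that the sequences can be set beside the values. They are RefSeq sequences of GRCh38.p14, from 250 bases before to 50 bases after the start of the gene, written along the gene. Capitals mark the androgen response half-site AGAACA or GGAACA and the TATA box TATAAA, searched on both strands, and TTTATA is TATAAA read on the other strand. RefSeq promoters were matched for 6 of the 8 genes called with the block.
KLK3 promoter (chr19:50854665-50854964, plus strand): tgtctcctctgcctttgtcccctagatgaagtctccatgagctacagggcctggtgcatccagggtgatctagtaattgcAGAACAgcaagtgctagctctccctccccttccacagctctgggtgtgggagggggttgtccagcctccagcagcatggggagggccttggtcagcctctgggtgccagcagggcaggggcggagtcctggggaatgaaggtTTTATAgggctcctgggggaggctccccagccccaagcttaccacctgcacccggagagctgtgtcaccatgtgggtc
KLK2 promoter (chr19:50873189-50873488, plus strand): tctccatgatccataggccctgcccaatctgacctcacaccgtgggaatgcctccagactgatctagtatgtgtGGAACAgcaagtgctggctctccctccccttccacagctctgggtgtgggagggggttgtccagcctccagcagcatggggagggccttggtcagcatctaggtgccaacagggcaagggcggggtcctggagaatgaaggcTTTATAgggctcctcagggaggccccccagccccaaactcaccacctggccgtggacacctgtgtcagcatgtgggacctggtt
UGT2B15 promoter (chr4:68670603-68670902, minus strand): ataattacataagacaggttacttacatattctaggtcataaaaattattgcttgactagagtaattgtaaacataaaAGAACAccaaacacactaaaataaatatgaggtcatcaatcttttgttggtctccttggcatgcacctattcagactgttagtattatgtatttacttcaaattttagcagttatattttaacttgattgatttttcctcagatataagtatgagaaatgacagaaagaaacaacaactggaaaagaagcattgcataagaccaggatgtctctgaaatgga
BCHE promoter (chr3:165837374-165837673, minus strand): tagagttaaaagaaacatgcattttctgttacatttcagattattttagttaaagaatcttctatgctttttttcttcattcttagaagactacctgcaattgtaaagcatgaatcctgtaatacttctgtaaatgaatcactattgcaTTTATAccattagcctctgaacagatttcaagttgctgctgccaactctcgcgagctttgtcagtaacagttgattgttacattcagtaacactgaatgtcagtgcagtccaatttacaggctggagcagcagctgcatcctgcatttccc

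AGAACA began 170 bases before the start of KLK3 and 172 bases before that of UGT2B15, and GGAACA 176 bases before that of KLK2. AGAACA occurs in 14.8% and GGAACA in 14.0% of 35116 RefSeq promoters of this length, on either strand. TATAAA occurs in 11.5% of them, and its match lay 28 bases before the start in KLK3, 34 in KLK2 and 101 in BCHE. The BCHE window held neither half-site. These matches describe the letters in the windows and were not tested for binding.

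KLK3 stood at 2244 and 1995 scaled FPKM with DMSO (replicates 1 and 2), 1103 and 1070 with I-CBP112, 572 and 628 with A-485, and 51.6 and 50.6 with both compounds. The 4 groups did not overlap, and the level with both was lower than the level at the sum, 307. The departure was -2.57 ± 0.26 (SE; -2.42 in replicate 1 and -2.71 in replicate 2), or 5.92-fold below the sum. Its adjusted p was 0.0666 in limma and 0.0206 in limma with the replicate block.

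KLK2 was at 548 and 366 scaled FPKM with DMSO, at 208 and 203 with I-CBP112, 108 and 110 with A-485, and 8.42 and 13.7 with both, against 49.6 at the sum. Its departure of -2.10 ± 0.38 was alike in both replicates (-2.13 and -2.08) and had an adjusted p of 0.192 in limma and 0.139 with the block. The libraries with both compounds were the lowest of the 8, with no overlap. KLK4 gave 237 and 226 with DMSO, 178 and 169 with I-CBP112, 146 and 138 with A-485, and 31.2 and 40.1 with both, where the sum would give 106. TMPRSS2 gave 188 and 166 with DMSO, 111 and 81.5 with I-CBP112, 75.7 and 65.8 with A-485, and 13.4 and 11.8 with both, where the sum would give 37.6. The departures were -1.56 ± 0.27 for KLK4 and -1.50 ± 0.29 for TMPRSS2, and TMPRSS2 had an adjusted p of 0.241 in limma, 0.0676 with the block and 0.0477 with the block and the GC and length correction. KLK4 was also among the 10 genes called with that correction.

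MYC, a growth-promoting transcription factor, had a smaller departure. It was at 243 and 197 scaled FPKM with DMSO, at 158 and 157 with I-CBP112, 61.4 and 51.7 with A-485, and 19.1 and 14.7 with both. The 4 groups did not overlap. The departure was -1.22 ± 0.29 (adjusted p = 0.361 in limma and 0.112 with the block).

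For these genes the sign rests on the scale. As differences of scaled FPKM, the departure was 484 for KLK3, 153 for KLK2, 23.1 for TMPRSS2 and 22.7 for MYC, all above 0. In group means, the falls with each compound alone, added in scaled FPKM, exceed the DMSO level for KLK3, KLK2, TMPRSS2 and MYC. A linear sum of means thus lies below 0, a level no transcript can reach. For MYC this did not hold in replicate 2, where the linear departure was 2.87, against 42.5 in replicate 1. KLK4 was below the sum on the linear scale too, by -48.3 scaled FPKM. What was tested directly, whatever the scale of additivity, is the fall from A-485 to both compounds, which passed in limma for KLK3 (log2 change -3.53 ± 0.18, adjusted p = 0.00059), KLK2 (-3.22 ± 0.27, 0.00416), TMPRSS2 (-2.39 ± 0.21, 0.00427) and MYC (-1.69 ± 0.21, 0.0105). In that comparison 85 genes fell (0.716%) and 12 rose (0.101%), beside 376 lower (3.17%) and 150 higher (1.26%) for A-485 minus DMSO, and 842 lower (7.09%) and 414 higher (3.49%) for both minus DMSO. I-CBP112 alone changed KLK3 by -0.96, with an adjusted p of 0.216 in limma.

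**Figure D2:**
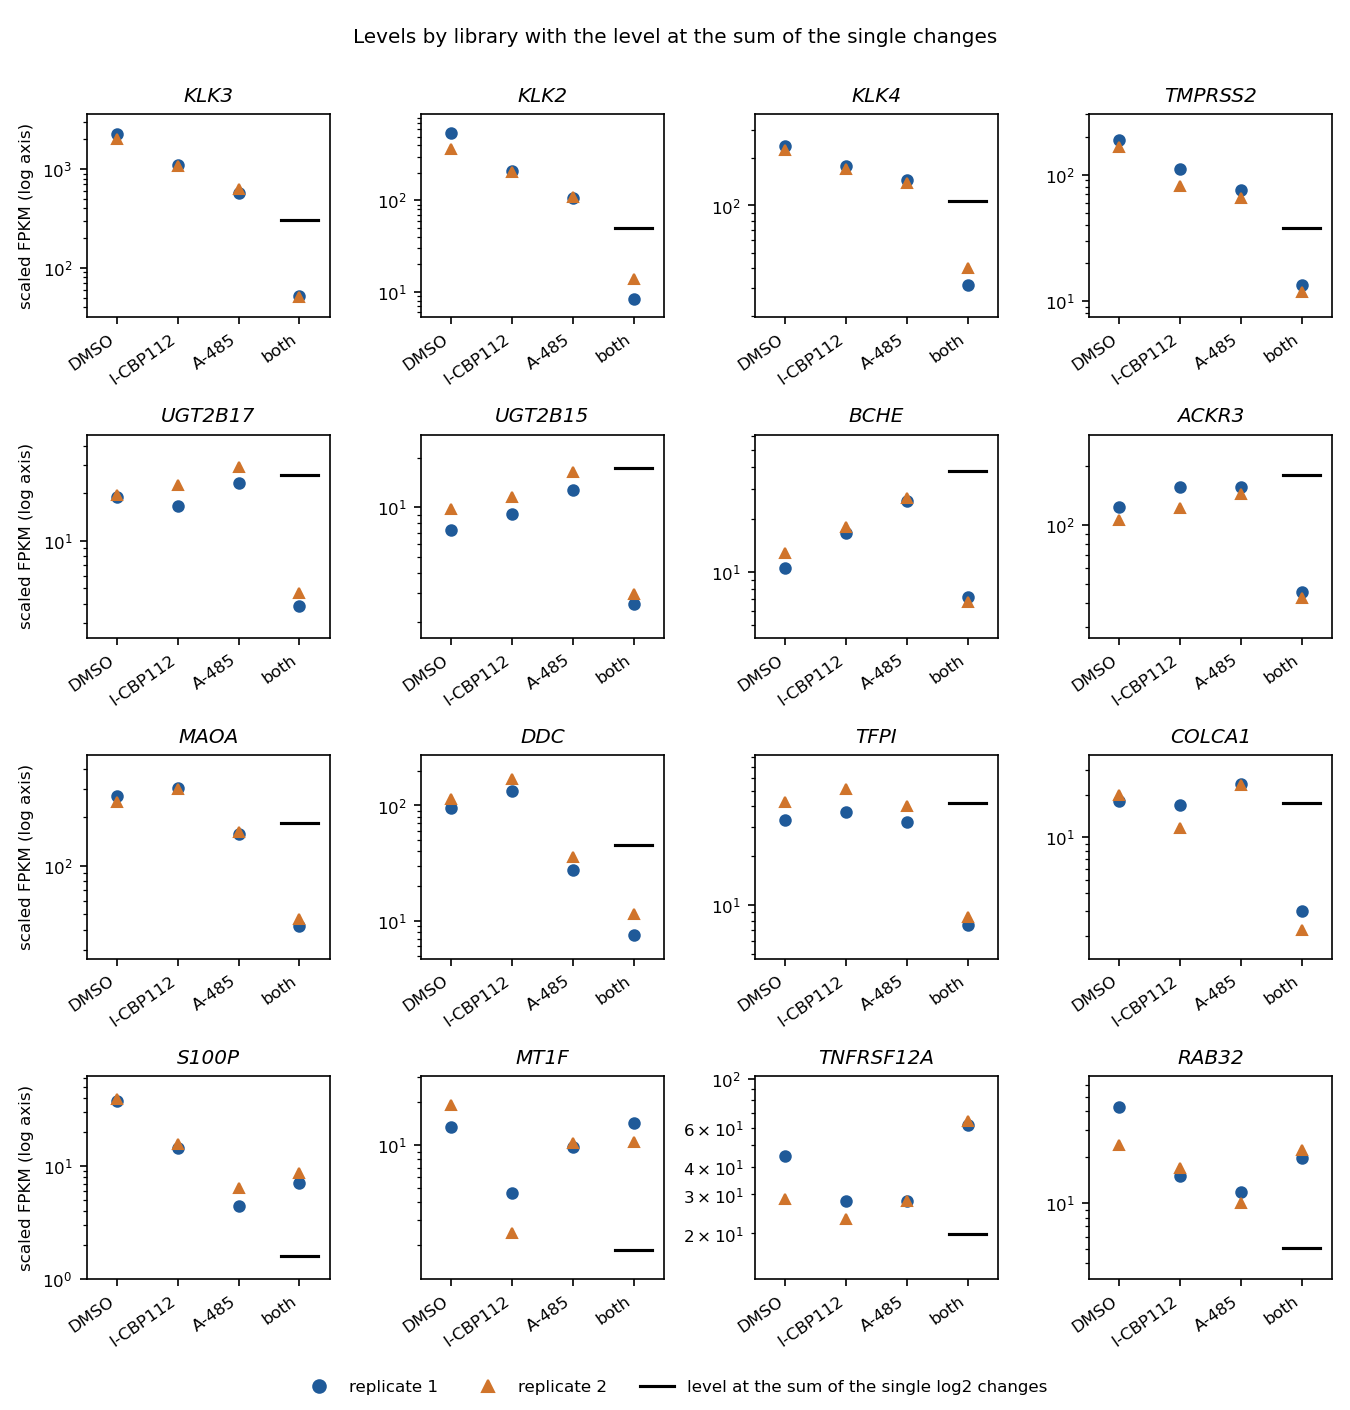
Level of 16 genes in each of the 8 libraries, in scaled FPKM on a log axis that differs between panels, by group. Circles are replicate 1, triangles replicate 2, and the black line over the group with both compounds is the level at the sum of the single log2 changes; in the first 12 panels both libraries lie under the line (KLK3 at 51.6 and 50.6 against 307) and in the last 4 they lie over it (S100P at 7.05 and 8.78 against 1.60).

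A second set of genes below the sum was not lowered by either compound alone, or only by A-485, and most of its members are known to be held down by androgen. UGT2B15 and UGT2B17, which attach glucuronic acid to androgens and so inactivate them, BCHE, which encodes butyrylcholinesterase, and ACKR3, an atypical receptor for the chemokine CXCL12, were each higher with A-485 than with DMSO in both replicates and were lower with both compounds than in any other library. The list of androgen-repressed genes had 13 genes tested, and 5 of them were among the 8 called with the block (BCHE, ACKR3, UGT2B17, DDC and UGT2B15), where the background was 0.0674%. MAOA and TFPI, also called with the block and described below with this set, are not in that list. With the block and the GC and length correction 2 of the 13 were called (ACKR3 and DDC), where the background was 0.0842%. The list was chosen with earlier results of these data known, so that it is not independent evidence.

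Set out by library, BCHE was at 10.6 and 12.8 scaled FPKM with DMSO, at 16.6 and 18.0 with I-CBP112, 25.5 and 26.3 with A-485, and 7.17 and 6.73 with both. Each compound alone stood above DMSO without overlap, and both together stood below it without overlap, against 38.0 at the sum. The departure was -2.29 ± 0.24 (-2.30 and -2.28 in the replicates), with an adjusted p of 0.0666 in limma, 0.0206 with the block and 0.0561 with the block and the GC and length correction. BCHE rose with A-485 against DMSO (1.09, adjusted p = 0.0159 in limma) and fell from A-485 to both (-1.76 ± 0.17, adjusted p = 0.00427).

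UGT2B17 was at 18.8 and 19.5 with DMSO, 16.5 and 22.4 with I-CBP112, 23.3 and 29.3 with A-485, and 3.88 and 4.70 with both, where the sum would give 26.3. UGT2B15 was at 7.33 and 9.83, 9.09 and 11.5, 12.7 and 16.3, and 2.58 and 2.97 in the same order, where the sum would give 17.2. For both genes the I-CBP112 libraries overlapped DMSO, the A-485 libraries stood above it, and the libraries with both compounds were the lowest of the 8. The departures were -2.37 ± 0.30 (adjusted p = 0.0989 in limma, 0.0206 with the block) for UGT2B17 and -2.27 ± 0.31 (0.106 and 0.0250) for UGT2B15. Neither call held with the block and the GC and length correction, where the adjusted p in limma was 0.0888 for UGT2B17 and 0.0561 for UGT2B15. UGT2B15 and UGT2B17 are near-identical copies, so the split of fragments between them is uncertain. UGT2B11, of the same family, at 0.51 to 1.73 scaled FPKM with a single compound or DMSO and 0.0717 and 0.0953 with both, had a departure of -1.71 ± 0.33.

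ACKR3 was at 123 and 106 scaled FPKM with DMSO, at 155 and 122 with I-CBP112, 156 and 145 with A-485, and 45.2 and 42.2 with both, where the sum would give 181. Its departure was -2.02 ± 0.28 (-2.09 and -1.95), with an adjusted p of 0.106 in limma and 0.0206 with the block. DDC, the decarboxylase that makes dopamine and serotonin, was higher with I-CBP112 (134 and 170) than with DMSO (95.5 and 113) and lower with A-485 (27.4 and 35.6), and stood at 7.53 and 11.4 with both. MAOA, which breaks down such amines, followed a like order at 270 and 248 with DMSO, 301 and 298 with I-CBP112, 158 and 161 with A-485, and 42.3 and 46.4 with both. The departures were -2.18 ± 0.35 for DDC (adjusted p = 0.143 in limma, 0.0206 with the block) and -2.03 ± 0.24 for MAOA (0.0858 and 0.0206).

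TFPI, an inhibitor of the start of blood clotting, was at 33.0 and 42.6 scaled FPKM with DMSO, at 37.1 and 51.4 with I-CBP112, 32.08 and 40.03 with A-485, and 7.49 and 8.45 with both. The first 3 groups overlapped, and the fourth stood below them all. Its departure was -2.26 ± 0.32, with an adjusted p of 0.122 in limma and 0.0206 with the block, which became 0.0765 with the GC and length correction. For BCHE, UGT2B17, UGT2B15, ACKR3, DDC, MAOA and TFPI the departure was below 0 on the linear scale as well, from -13.4 scaled FPKM for UGT2B15 to -156 for MAOA.

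COLCA1 was at 18.1 and 19.8 scaled FPKM with DMSO, at 17.0 and 11.7 with I-CBP112, 23.6 and 23.4 with A-485, and 2.99 and 2.22 with both, a departure of -2.37 ± 0.30 with an adjusted p of 0.0995 in limma, 0.0562 with the block and 0.0447 with the block and the GC and length correction. The libraries with both compounds were the lowest of the 8. Of the other genes that the naming rule placed furthest below, none called in limma with or without the block, TMEM189-UBE2V1 is a readthrough of neighbouring genes and AHSA2P a pseudogene, so that their fragments are shared with other genes. AC006486.1, TMEM189-UBE2V1, VPS13A and ZMYND8 had standard errors of 0.63 to 1.78. AC006486.1 and TMEM189-UBE2V1 were each near 0 in 1 of 2 libraries with DMSO and in 1 of 2 with both.

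Most genes far above the sum stood lower with each compound alone than with DMSO, and with both compounds they were not as low as the sum would place them. The DMSO level enters both the departure and each single change, so selection by the departure favours this shape. S100P, a calcium-binding protein, was at 37.4 and 39.2 scaled FPKM with DMSO, at 14.3 and 15.7 with I-CBP112, 4.45 and 6.46 with A-485, and 7.05 and 8.78 with both, where the sum would give 1.60. Its 4 groups did not overlap, and both compounds together left more of it than A-485 alone. The departure was 1.77 ± 0.29 (1.89 and 1.66), with an adjusted p of 0.143 in limma and 0.0704 with the block. No gene above the sum was called, with or without the block.

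RAB32, a small GTPase of membrane traffic, gave 42.7 and 24.2 scaled FPKM with DMSO, at 14.9 and 17.0 with I-CBP112, 11.7 and 9.97 with A-485, and 19.6 and 22.5 with both, a departure of 1.87 ± 0.37. TNFRSF12A, the receptor for the cytokine TWEAK, gave 44.9 and 28.6 with DMSO, 27.9 and 23.2 with I-CBP112, 28.0 and 28.2 with A-485, and 61.9 and 64.2 with both, a departure of 1.62 ± 0.32. Here the 2 libraries with both compounds were the highest of the 8. GADD45B, a stress-induced growth arrest gene, had a departure of 1.76 ± 0.41, which fell to 0.40 when only the transcript with the highest level was used. The calcium channel gene TRPV6 had one of 1.60 ± 0.49. MT1F, a metallothionein, stood at 13.4 and 19.1 with DMSO, 4.64 and 2.43 with I-CBP112, 9.70 and 10.4 with A-485, and 14.4 and 10.6 with both. Its departure of 2.23 ± 0.40 fell to 0.31 with the highest transcript only, and metallothionein genes are close copies of each other.

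CLU, which encodes the extracellular chaperone clusterin, was at 73.7 and 65.0 scaled FPKM with DMSO, at 59.0 and 95.7 with I-CBP112, 30.2 and 14.2 with A-485, and 86.9 and 72.2 with both. CLU was lowest in the A-485 libraries, and in the others the groups overlapped. Its departure was 1.77 ± 0.50, with an adjusted p of 0.434 in limma. RAB36 and MGST3, a glutathione transferase of the microsomal membrane, had departures of 1.59 ± 0.32 and 2.44 ± 0.57, and that of MGST3 was 4.20 with the highest transcript only. ACAP1 (1.80 ± 0.85), BCAP31 (1.48 ± 1.02) and TGFBRAP1 (6.25 ± 2.70) had wide errors. TGFBRAP1 moved between 6.53 and 443 scaled FPKM within groups, so that its value says little.

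**Figure D3:**
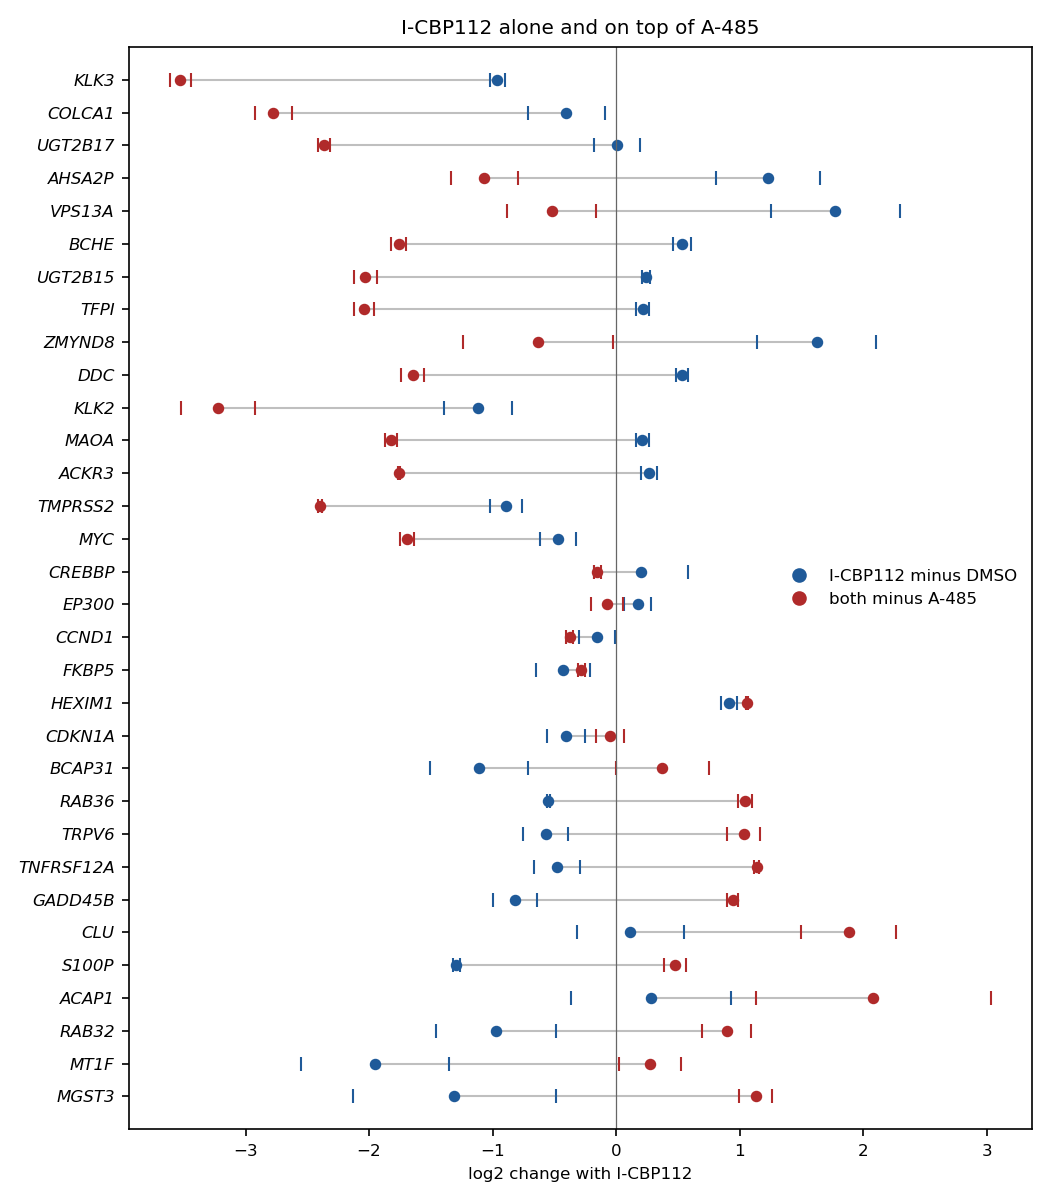
Log2 change made by I-CBP112 in the absence of A-485 (blue, I-CBP112 minus DMSO) and in its presence (red, both minus A-485) for most genes of the panel and most of those furthest from the sum, leaving out among others 3 genes with wide errors. Circles are group contrasts, ticks the values of the 2 replicates, and the grey line between the circles is the departure; UGT2B17 moved from 0.01 without A-485 to -2.36 with it, and S100P from -1.29 to 0.48.

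The transcripts far from the sum differed in shape between the directions. Among 8878 genes with a mean of at least 5 scaled FPKM, 120 were at least 1 below the sum in both replicates and 42 at least 1 above. In 63 of the 120 below, each library with a single compound stood above the DMSO library of the same replicate, and in 11 each stood below it. In 54 of the 120 both libraries with the 2 compounds were the lowest of the 8. Of the 42 above, 36 had each single-compound library below the DMSO library of the same replicate and 0 had each above it. The sign on the linear scale was the same for 115 of the 120 below and 42 of the 42 above. These counts share libraries with the departure and describe it. DMSO enters the departure with a plus sign and each single change with a minus sign. A high or low DMSO value alone therefore favours the single-compound shapes, and their shares over the 8878 genes were not computed. The median length was 2439 bases below, 1233 above and 2196 over the 8878 genes, and the median GC content was 41.7%, 56.3% and 50.6%. GC content and length thus moved with the direction, and values from the corrected fit are given beside genes whose call they changed and beside the lists they moved most among those described.

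Lists of genes of known function were set beside the median departure of all genes, 0.03. Over all genes tested, 30.7% lay below the sum in both replicates and 34.8% above it. The androgen-repressed list had 13 of 23 entries tested (1 further entry is an older symbol of ACKR3), a median departure of -1.60, 10 genes below the sum in both replicates and 1 above, and 10 at an unadjusted p under 0.05 below, where the background was 5.36%. Beside the genes already named, PRR16 (-1.60 ± 0.31), SERPINI1 (-1.58 ± 0.33), the tumour suppressor candidate ST7 (-1.16 ± 0.27) and CAMK2N1, an inhibitor of a calcium-dependent kinase (-0.76 ± 0.30), lay below. UBE2C (-0.08), PSMD5 (0.35) and CITED2 (0.42) did not. Relative to all genes the list's median was -1.63, and -1.30 with the block and the GC and length correction. It ranged from -2.07 with a pseudocount of 0.1 to -1.12 with a pseudocount of 5, and was -0.58 when genes without a sufficient level were included.

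Kallikreins and prostate secreted or surface antigens had 17 of 22 entries tested and a median departure of -1.03, with 12 below the sum in both replicates, 2 above and 6 at least 1 below in both, where the background was 1.57%. Below lay TMEFF2, a transmembrane protein (98.2 and 108 scaled FPKM with I-CBP112 against 50.6 and 66.0 with DMSO, 10.2 and 15.7 with both, -1.37 ± 0.36), the surface proteins STEAP1 (-1.23 ± 0.31) and STEAP2 (-1.03 ± 0.28), and the phospholipase PLA2G2A (-1.17 ± 0.32). SLC45A3 (-0.07 ± 0.34) and PMEPA1 (0.06 ± 0.27) lay near the sum, and FOLH1, the prostate-specific membrane antigen (0.32 ± 0.26), and AZGP1 (0.64 ± 0.26) above 0. Relative to all genes the list's median was -1.06, -0.64 with the block and the GC and length correction, and -0.46 when genes without a sufficient level were included. The broader androgen-induced list had 36 genes tested and a median of -0.24. Relative to all genes it was -0.27, -0.18 with the block and the correction and -0.13 with a pseudocount of 5. In it 18 genes were below in both replicates and 6 above, and KCNN2 (-1.36 ± 0.28), ABCC4 (-1.20 ± 0.24), a pump for organic anions, and NNMT, a methyltransferase of nicotinamide (-1.40 ± 0.41), stood with KLK3, KLK2 and TMPRSS2. FKBP5 (0.15 ± 0.25) and TSC22D3 (0.46 ± 0.30) lay above 0. The members of the androgen-induced list thus lay on both sides of the sum.

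Targets of ATF4, the transcription factor of amino acid shortage, were on the other side, with a median departure of 0.45 over 32 genes, 21 above the sum in both replicates and 5 below, and 5 at an unadjusted p under 0.05 above against a background of 3.56%. CTH, an enzyme of cysteine synthesis, was at 22.4 and 15.8 scaled FPKM with DMSO, at 10.3 and 12.1 with I-CBP112, 5.09 and 4.24 with A-485, and 6.59 and 7.86 with both (1.24 ± 0.31). ATF3, a stress-induced factor, was at 109 and 73.1, 74.1 and 82.7, 20.3 and 21.6, and 41.2 and 47.7 in the same order (1.23 ± 0.31). Both genes were lowest with A-485 alone. ASNS, asparagine synthetase, had a departure of 0.81 ± 0.35, and the cystine carrier SLC7A11 one of -0.78 ± 0.37.

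Endoplasmic reticulum folding and unfolded protein response genes had a median of 0.39 over 30 genes, 24 above in both replicates and 2 below, with SEC24D (1.38 ± 0.31), HERPUD1 (0.70 ± 0.27) and the stress sensor ERN1 (0.69 ± 0.25) at an unadjusted p under 0.05. Serine, proline and one-carbon enzymes had 0.36 over 25 genes, 18 above and 4 below, and share CTH and ASNS with the ATF4 list. For these 3 lists the median with the block and the GC and length correction stayed at 0.32, 0.32 and 0.24 relative to all genes. It did not stay so for cytosolic ribosomal proteins, whose median was 0.41 over 50 genes with 37 above in both replicates. Relative to all genes that list went from 0.38 to 0.06 with the correction, and oxidative phosphorylation (39 genes, median 0.39) from 0.36 to 0.18.

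Cell cycle genes were mixed. Genes of G2/M and mitosis had a median of -0.19 over 36 genes, 20 below in both replicates (background 30.7%) and 4 above (34.8%), and 12 at an unadjusted p under 0.05 below (5.36%). Relative to all genes the list's median was -0.22, and -0.37 with the block and the GC and length correction. The largest departures were those of CENPF, a kinetochore protein (-1.95 ± 0.57), HMMR (-1.79 ± 0.56) and CENPE, a kinetochore motor (-1.68 ± 0.57). CENPF was at 1.39 scaled FPKM in DMSO replicate 1 and 5.22 in DMSO replicate 2, a difference between control libraries whose part in the departure was not tested. CDK1, the mitotic kinase, was at 29.4 and 48.5 with DMSO, 26.3 and 26.7 with I-CBP112, 49.8 and 67.3 with A-485, and 18.6 and 16.4 with both (-1.18 ± 0.37). PLK1 (0.10 ± 0.46), CCNB1 (0.32 ± 0.29) and FOXM1 (0.06 ± 0.33) did not lie below. Genes of G1/S and DNA replication had a median of -0.25 over 39 genes, 20 below and 5 above, and none was past 1 in both replicates.

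The p53 target list had a median of -0.21 over 27 genes, 12 below and 4 above in both replicates, and its 3 strongest members stood out from the rest. PLK2, a stress-induced polo kinase, was at 17.6 and 18.4 scaled FPKM with DMSO, at 17.2 and 17.7 with I-CBP112, 20.6 and 21.8 with A-485, and 4.75 and 5.83 with both (-1.78 ± 0.24). It was among the 10 genes called with the block and the GC and length correction. SESN1, a stress protein that restrains mTOR (-1.52 ± 0.30), and the antiproliferative gene BTG2 (-1.07 ± 0.28) had the same shape, while CDKN1A (0.36 ± 0.45) did not. Medians of like size were found for splicing factors (-0.27 over 37 genes), prostate lineage transcription factors (-0.21 over 18), glucocorticoid-type response genes (0.26 over 16) and canonical histones (0.24 over 22), and histones went to 0.01 relative to all genes with the correction. Of 44 lists with at least 3 tested genes, the others had medians between -0.15 and 0.25, and 83 genes sat in more than 1 list, so that lists are not independent.

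**Figure D4:**
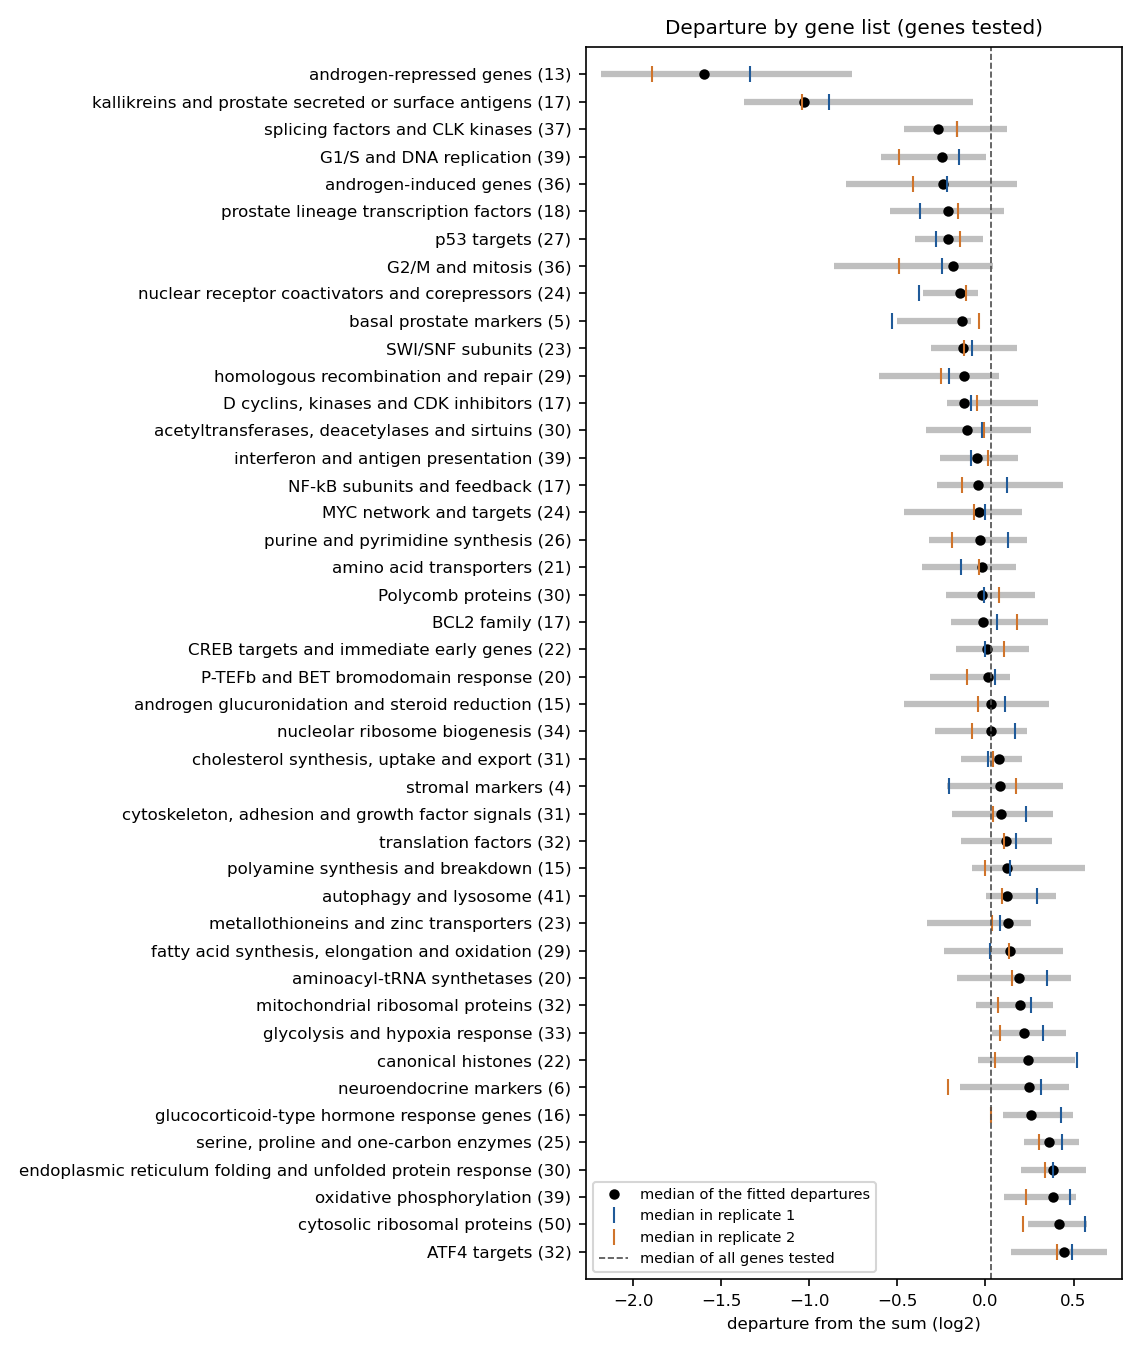
Median departure from the sum (log2) of 44 gene lists with at least 3 tested genes, with the number tested in brackets. Black points are medians of the fitted departures, grey bars the quartiles of the members, blue and orange ticks the medians in replicate 1 and replicate 2, and the dashed line the median of all genes tested, 0.03; androgen-repressed genes (-1.60) and kallikreins (-1.03) lie furthest from it.

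Several genes of the panel were not told apart from the sum. HEXIM1, the inhibitor of the elongation kinase P-TEFb, rose with A-485 (0.89, adjusted p = 0.0297 in limma) and again from A-485 to both (1.06 ± 0.17, adjusted p = 0.0342), at 16.2 and 19.4 scaled FPKM with DMSO, at 32.9 and 35.8 with I-CBP112, 32.9 and 34.7 with A-485, and 69.5 and 73.8 with both. Its departure was 0.15 ± 0.24 and, like that of FKBP5, changed sign to -0.08 with scaling to the total only. Departures of the target genes themselves were -0.25 ± 0.30 for EP300 and -0.35 ± 0.40 for CREBBP. CCND1 (-0.22 ± 0.25) and FKBP5 (0.15 ± 0.25) also lay within 1 standard error of 0.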

How the data were processed

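RNA-seq of 8 libraries (4 groups of 2) was analysed from 1 table of 81591 transcripts. Per the labels' protocols, RNA was taken with Trizol and DNase and libraries with a kit from New England Biolabs. Tools listed in the submitters' processing notes are Cufflinks, STAR, DESeq2 and DESeq, with the builds GRCh37 and hg19, and the sources used here give no versions. The deposited values were treated as FPKM made by the authors, because 78.3% were not whole and 78.4% to 85.5% of low values of long transcripts were whole multiples (within 0.1) of 1 step per library. That step and a fragment length of 100 to 240 bases were chosen for each library to fit such multiples best. The same values gave the percentages, which are therefore not an independent check. The step gave the fragment numbers, which are estimates. The design allowed for counts or FPKM, and the FPKM test was used. Transcripts were matched to GENCODE by Ensembl identifier (74209, 91.0%), used for names, lengths and GC content only. Gene sums were scaled to 1e+06 and by a trimmed mean of log ratios (30% of ratios, 5% of levels).

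Genes with a scaled value of at least 1 in at least 2 libraries were tested with limma 3.58.1 (R 4.3.3) on log2 values with a pseudocount of 1, a trended robust spread, Benjamini-Hochberg adjustment at 0.05 and 4 degrees of freedom left for the residual. The scripts were tested on simulated data. Same-numbered libraries deviated together in all 6 pairs of groups (correlations 0.15 to 0.42). The numbers were taken to pair the libraries in the departures by replicate and in the blocked fit. They also separate the libraries with more fragments assigned to the transcripts of the table from those with fewer. The main fit has no block, because the labels do not say that a number marks a shared culture or day, so it leaves the pairing out. The blocked fit, which uses the pairing, is the alternative printed where it changes a call. Named genes were a panel of 12, then the 12 furthest on each side by the smaller departure of the 2 replicates at a mean of at least 5, and list members by p. Some genes that the rule named are not reported here. The members and lists were chosen with earlier results of these data known, and genes described within lists beyond that rule were chosen after their values were seen. Alternatives changed scaling, pseudocount, filter, spread, weights, transcript choice, block and libraries left out.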

Additional observations from a re-analysis of the deposited data

How the results depend on the processing

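The number of genes called below the sum was 0 and became 4 with scaling to the total only, 2 with a mean of at least 5, 8 with the replicate block, and 10 with the replicate block and GC and length correction. The number above was 0 and became 2 with the highest transcript only (SSBP1 and MPV17). Without the block, leaving out each library gave 0 calls on both sides. With the replicate block it gave 0 to 361 below (361 without DMSO replicate 2, 15 without DMSO replicate 1) and 0 to 165 above (165 and 2), and 0 on both sides without any of the 6 inhibitor libraries; this was chosen after seeing the data. The block changed no call of the named genes other than the 8. At an unadjusted p under 0.05 in limma, 637 genes lay below and 423 above (60.1% below); scaling to the total only gave 1004 and 142 (87.6%), the FPKM as deposited 11 and 3 (78.6%), and the block 875 and 973 (47.3%). Leaving out 1 library gave 331 (without A-485 replicate 2) to 1273 (without DMSO replicate 2) below and 218 (without I-CBP112 and A-485 replicate 2) to 907 (without DMSO replicate 2) above. On the linear scale, the departure turned positive for KLK3 (484), KLK2 (153), TMPRSS2 (23.1) and MYC (22.7). Values near 0 changed sign for FKBP5 (-0.0823 with the total only, -0.0364 with the block and without DMSO replicate 1), HEXIM1 (-0.0822 with the total only) and CREBBP (-0.7756 to 0.0771 when 1 library was left out, the highest without DMSO replicate 1, and 0.16 with the block as well). The cause was not tested. Values for 35 genes were followed over the alternatives other than the blocked fits that also left out a library. Of these values 709 kept their direction without a call, 19 gained a call and 7 reversed. No gene was called in the main fit, and the values on the linear scale, compared by sign only, had no p-value. The smaller estimated number of assigned fragments in replicate 2 limits the departures of genes with low values.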

Other observations

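Zinc handling and fatty acid genes belong to lists not singled out above. The metallothionein and zinc transporter list had a median departure of 0.13 over 23 genes, 9 below the sum in both replicates and 10 above. The fatty acid list had 0.14 over 29 genes, 11 below and 15 above, with SLC25A20 above the sum (0.80 ± 0.25). The zinc and fatty acid genes below the sum given next therefore do not stand for their lists. SLC30A4, a zinc exporter, was at 43.0 and 50.4 scaled FPKM with DMSO, at 49.35 and 52.97 with I-CBP112, 23.7 and 26.5 with A-485, and 12.3 and 13.8 with both, a departure of -1.03 ± 0.24. The zinc importer SLC39A8 had one of -0.90 ± 0.34. AMACR, a racemase of branched-chain fatty acids that is used as a prostate cancer marker, was at 27.3 and 30.8 with DMSO, 35.8 and 29.5 with I-CBP112, 55.4 and 62.3 with A-485, and 21.9 and 25.2 with both (-1.45 ± 0.26), so that it was high with A-485 alone and not with both compounds. FOXA1, a pioneer factor of the prostate lineage, was at 203 and 168, 199 and 194, 144 and 138, and 222 and 223 in the same order (0.57 ± 0.25). None of these was called in limma, with or without the block.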
